A study of Mus musculus with 8 samples.

Results

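The 35 genes described here encode the enzymes that carry glucose to lactate and that build and break down glycogen, together with the enzymes that set the level of fructose 2,6-bisphosphate. They were chosen as a named list, and all 35 were found by Entrez identifier among the 27179 rows of the deposited expression table. The samples came from C2C12 cells, an immortalized line of mouse myoblasts that leave the cell cycle and fuse into myotubes when serum is withdrawn. Cells in growth medium (GM) were taken at 50% confluence in high glucose DMEM with 10% fetal bovine serum, and cells in differentiation medium (3d DM) were switched after more than 90% confluence to the same base medium with 2% horse serum for 3 days. Both states were grown on collagen-coated dishes, and the labels name no transgene or drug. Each state had 2 input libraries, which give the RNA level, and 2 libraries precipitated with an antibody against N6-methyladenosine (m6A), a methyl mark on adenosines inside mRNA. The labels do not say whether the replicates came from separate cultures, so the p-values measure only the spread between these libraries, which may be technical. In limma that spread is in large part shared among genes of similar level.

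Glycolysis breaks 1 molecule of glucose into pyruvate with a net yield of ATP, and lactate dehydrogenase recycles the NAD+ that the pathway needs. Several of its steps are catalysed by isozymes from separate genes, of which 1 is typical of adult skeletal muscle and the others are widespread or typical of brain or liver. Muscle also stores glucose as glycogen, which glycogen synthase lengthens and glycogen phosphorylase releases as glucose 1-phosphate. For this account 11 members were taken as muscle forms (Hk2, Pfkm, Aldoa, Pgam2, Eno3, Ldha, Pygm, Phka1, Phkg1, Gys1 and Fbp2), although several of them, such as Aldoa, Ldha and Gys1, are also used widely outside muscle. A further 10 were general forms or forms of other tissues, 10 had no muscle counterpart among the members, and 4 were the Pfkfb enzymes.

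The libraries carried the markers of their labelled states. All 7 myotube markers were higher in 3d DM, and 4 of 6 myoblast markers were lower, while Pax7 and Myod1 did not pass the test. The summed value of the myotube markers was 5183 and 1172 in the 2 GM libraries and 96045 and 134095 in the 2 3d DM libraries, so GM replicate 1 held more of them than GM replicate 2. The markers of adipocytes, osteoblasts, endothelial cells and leukocytes did not exceed a summed value of 26.4 in any library, and Adipoq, Plin1, Fabp4 and Ibsp were listed at 0 in all 4. In bulk RNA, fewer cells using a gene and less RNA of that gene in each cell cannot be told apart.

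Levels are the authors' TMM-normalized values, on which each library sums to about the same total. A single table entry without a gene symbol took 24.4% to 41.3% of that total, and the median log2 fold change of all genes tested was -0.22 (3d DM minus GM). Rescaling the 4 libraries by median-of-ratios factors moved this median to 0.00, so each change is given on the deposited scale and, where the call differs, on the rescaled one. Changes were tested with limma on log2(value + 1) over the 11406 genes that passed a filter on low values, and a gene was called at an adjusted p under 0.05. Of the 35 members, 30 passed the filter. On the deposited scale 5 of these 30 were called higher in 3d DM, against a background of 7.01% of all genes tested, and 5 were called lower, against 9.96%. After rescaling, 7 members were called higher (background 12.0%) and 7 lower (background 11.2%). The median log2 fold change of the 30 members was -0.14 on the deposited scale and 0.09 after rescaling, so the members as a whole lay close to all genes while single enzymes moved in both directions.

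**Figure D1:**
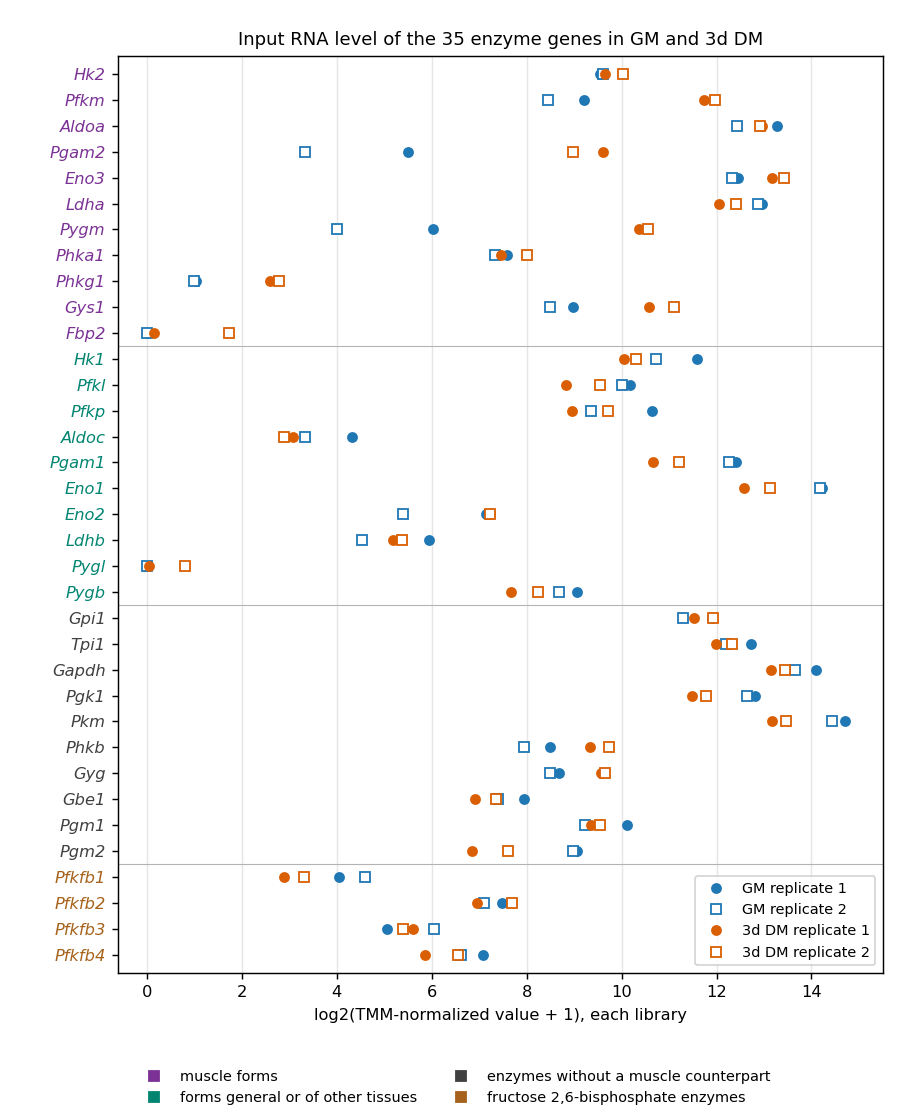
Level of each of the 35 genes in the 4 input libraries, as log2(TMM-normalized value + 1), with the genes grouped by kind of enzyme. Blue marks are GM and orange marks 3d DM; Pfkm, Pgam2, Pygm and Gys1 have both orange marks far to the right of both blue ones, and Pgam1, Eno1, Pkm and Pgm2 have them to the left.

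Of the 5 members called higher, 4 were muscle forms, and no muscle form was called lower. The background for the counts below was 7.01% of all genes tested for higher and 9.96% for lower. After rescaling it was 12.0% and 11.2%. Of the 9 muscle forms tested, 4 were called higher and 0 lower, with a median log2 fold change of 0.91, and after rescaling 5 were called higher and 0 lower. Of the 8 general forms tested, 0 were called higher and 2 lower, with a median of -0.91, and after rescaling 0 were higher and 4 lower. Among the 10 enzymes without a muscle counterpart, 1 was called higher and 3 lower, and after rescaling 2 were higher and 3 lower. The 3 Pfkfb genes tested gave no call on either scale. Of the 30 tested members, 9 had both 3d DM libraries above both GM libraries on the deposited scale (16.8% of all genes tested did), and 12 had both below (37.0% did). After rescaling, 12 were above (33.9% of all genes tested) and 12 below (33.2%), shares not far from those of all genes.

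**Figure D2:**
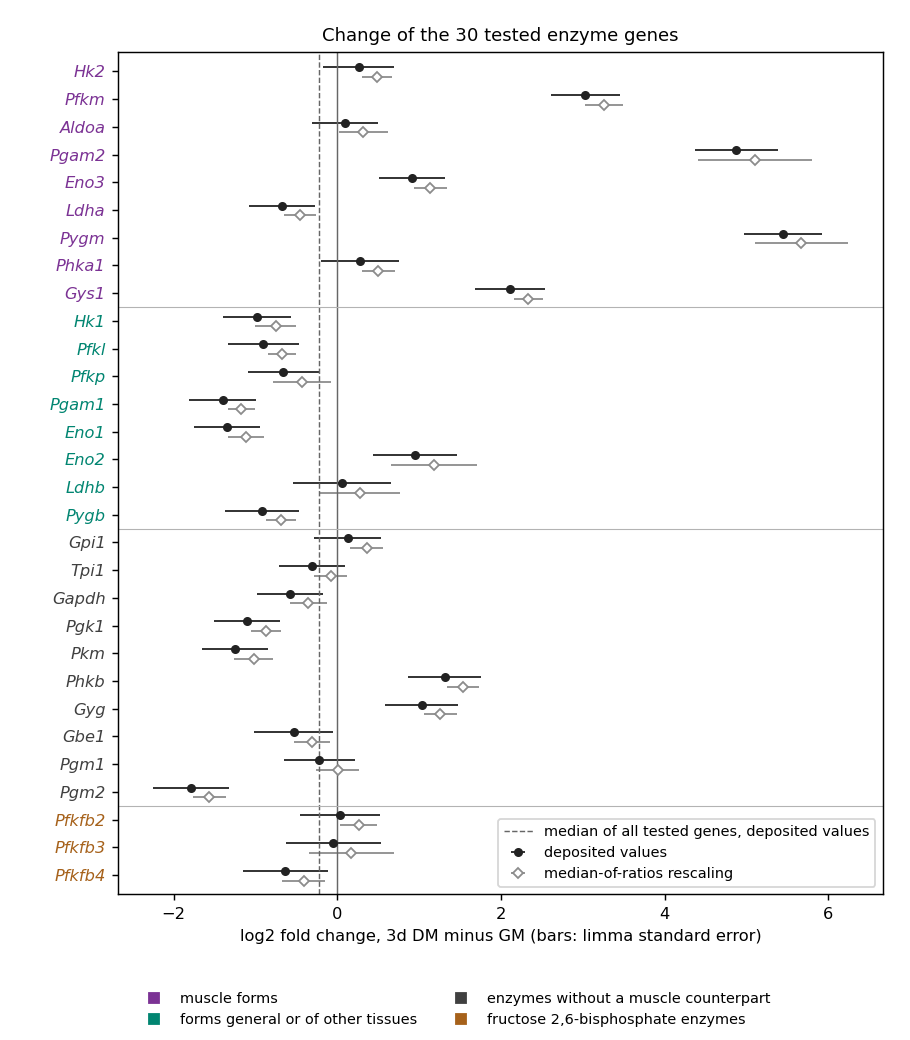
Log2 fold change (3d DM minus GM) of the 30 tested genes with limma's standard error, on the deposited values (filled circles) and after median-of-ratios rescaling (open diamonds). The dashed line marks the median of all tested genes on the deposited scale, -0.22; Pygm, Pgam2, Pfkm and Gys1 lie farthest to the right and Pgm2 farthest to the left.

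The early steps of glycolysis trap glucose and commit it to breakdown. Hexokinase phosphorylates glucose, and Hk1, the widespread form, had values of 3083 and 1700 in GM against 1062 and 1267 in 3d DM. Hk2, the insulin-regulated form of muscle, had 747 and 785 in GM against 808 and 1040 in 3d DM. Hk1 was lower and Hk2 higher in both 3d DM libraries, but neither change passed the test (log2 fold change -0.98 ± 0.42 SE, adjusted p = 0.093 for Hk1 in limma). Gpi1, the isomerase that turns glucose 6-phosphate into fructose 6-phosphate, overlapped between the states with 3819 and 2512 in GM against 2956 and 3873 in 3d DM.

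At phosphofructokinase, the committing step, the muscle subunit rose while the other subunits did not. Pfkm, the muscle subunit, had values of 587 and 348 in GM against 3388 and 4030 in 3d DM, an 8.16-fold higher level. Its log2 fold change was 3.03 ± 0.42 SE, with an adjusted p of 4.6e-11 on the deposited scale and of 0.0015 after rescaling in limma. Pfkl, the liver subunit, had 1153 and 1024 in GM against 453 and 744 in 3d DM. It was lower in both 3d DM libraries, with an adjusted p of 0.15 on the deposited scale and of 0.039 after rescaling in limma. Pfkp, the platelet subunit, overlapped between the states, since GM replicate 2 (657) lay below 3d DM replicate 2 (845). The other values of Pfkp were 1591 in GM replicate 1 and 495 in 3d DM replicate 1.

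In the middle of the pathway, aldolase splits fructose 1,6-bisphosphate and triose phosphate isomerase interconverts its products. Aldoa had 9861 and 5558 in GM against 7999 and 7764 in 3d DM, with the 3d DM libraries lying between the GM libraries. Aldoc, the brain form, reached at most 19.0 in any library and was not tested. Tpi1 also overlapped, with 6805 and 4723 in GM against 4077 and 5124 in 3d DM. Gapdh, which makes the first NADH of the pathway and often serves as a reference gene, had 17541 and 12948 in GM against 9077 and 11163 in 3d DM. Both 3d DM libraries were lower for Gapdh, and the change did not pass the test on either scale (log2 fold change -0.58 ± 0.40 SE, adjusted p = 0.39, and adjusted p = 0.31 after rescaling, limma).

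The lower steps held 4 of the 5 members called lower. Pgk1, phosphoglycerate kinase, which makes the first ATP of the pathway, had 7219 and 6393 in GM against 2851 and 3502 in 3d DM (log2 fold change -1.10 ± 0.41 SE, adjusted p = 0.041 in limma). Pgam1, the widespread phosphoglycerate mutase, had 5453 and 4924 in GM against 1618 and 2377 in 3d DM (log2 fold change -1.40 ± 0.41 SE, adjusted p = 0.0057 in limma). Both genes were lower in each 3d DM library than in each GM library, on the deposited scale and after rescaling.

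Pgam2, the muscle phosphoglycerate mutase, had 44.5 and 9.06 in GM against 778 and 504 in 3d DM, a 29.3-fold higher level. Its log2 fold change was 4.87 ± 0.50 SE, with an adjusted p of 5.7e-20 on the deposited scale and of 0.0068 after rescaling in limma. Its 2 GM libraries differed several-fold from each other, and GM replicate 1, the one with more myotube marker RNA, was the higher. The part of those markers in the difference was not tested.

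Enolase turns 2-phosphoglycerate into phosphoenolpyruvate. Eno1, the widespread form, had 19111 and 18657 in GM against 6151 and 8959 in 3d DM (log2 fold change -1.35 ± 0.40 SE, adjusted p = 0.0068 in limma). The value of Eno1 is uncertain because the table holds the near-identical gene Eno1b, a retrogene copy, at 10443 and 9530 in GM against 3385 and 4604 in 3d DM, and the counting could have split their reads. Eno3, the muscle form, had 5600 and 5136 in GM against 9222 and 10977 in 3d DM. Both 3d DM libraries were higher for Eno3, with an adjusted p of 0.11 on the deposited scale and of 0.015 after rescaling in limma. Eno2, the neuronal form, was low, with 141 and 41.2 in GM against 148 and 149 in 3d DM, and did not pass the test.

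Pyruvate kinase and lactate dehydrogenase end the pathway. Pkm, pyruvate kinase of muscle and of dividing cells, had 26811 and 22061 in GM against 9191 and 11370 in 3d DM (log2 fold change -1.25 ± 0.40 SE, adjusted p = 0.014 in limma). The gene makes the M1 and M2 enzymes by alternative splicing, and a value per gene does not separate them. Ldha had 7931 and 7537 in GM against 4273 and 5432 in 3d DM, lower in both 3d DM libraries without passing the test (log2 fold change -0.68 ± 0.40 SE, adjusted p = 0.29 in limma). Ldhb, the heart form, was low throughout, between 22.1 and 60.2, and overlapped between the states.

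The calls depended on the number of libraries. With 1 library left out, between 0 and 2 members were called lower, in place of 5, with 0 when GM replicate 1 or 3d DM replicate 1 was left out, 1 without GM replicate 2 and 2 without 3d DM replicate 2. The calls of higher level fell to 1 without 3d DM replicate 1, to 3 without GM replicate 2 or 3d DM replicate 2, and to 4 without GM replicate 1. The loss was general, since the calls over all genes fell from 1136 to between 44 and 573 for lower and from 800 to between 101 and 679 for higher. The direction of the 5 members called lower stayed in each alternative tried. Log2 fold changes were -1.08 to -1.62 for Eno1, -1.12 to -1.68 for Pgam1 and -0.87 to -1.25 for Pgk1. They were -1.02 to -1.40 for Pkm and -1.42 to -2.16 for Pgm2. With all 4 libraries, Pgk1 lost its call without the low-value filter and without the intensity trend (adjusted p = 0.063 and 0.090 in limma). Pkm lost its call without the filter (adjusted p = 0.055 in limma). With replicate number as a block, Pgk1, Pkm, Eno1 and Pgam1 lost theirs (adjusted p = 0.20, 0.075, 0.054 and 0.071 in limma). Pfkm kept its call in all 12 alternatives tried, and Pgam2 and Pygm lost theirs only without 3d DM replicate 1 (adjusted p = 0.084 and 0.052 in limma). Gys1 lost its call without GM replicate 2 or without either 3d DM library (adjusted p of up to 0.064 in limma). On the deposited scale the standard errors of the members, 0.40 to 0.60, followed the general relation between level and spread rather than the replicates of each gene. The very small p-values on that scale therefore rest on this relation. After rescaling the standard errors lay between 0.17 and 0.70.

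Glycogen metabolism held the largest change of the list. Pygm, muscle glycogen phosphorylase, had 64.5 and 15.1 in GM against 1321 and 1506 in 3d DM, a 43.5-fold higher level. Its log2 fold change was 5.44 ± 0.47 SE, with an adjusted p of 2.5e-28 on the deposited scale and of 0.0032 after rescaling in limma. As for Pgam2, GM replicate 1 was the higher of the 2 GM libraries, and both lay far below 3d DM. Pygb, the brain form, had 535 and 411 in GM against 204 and 301 in 3d DM, with an adjusted p of 0.17 on the deposited scale and of 0.043 after rescaling in limma. Pygl, the liver form, was listed at 0 in both GM libraries and did not exceed 0.75 in 3d DM.

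Phosphorylase kinase switches the phosphorylase on. Its shared beta subunit, Phkb, had 360 and 245 in GM against 642 and 847 in 3d DM (log2 fold change 1.31 ± 0.45 SE, adjusted p = 0.023 in limma), a call that was lost whichever library was left out (adjusted p = 0.13 to 0.61). Its muscle alpha subunit, Phka1, overlapped between the states with 191 and 161 in GM against 176 and 256 in 3d DM. The muscle catalytic subunit, Phkg1, lay under the filter, at 1.04 and 1.00 in GM against 5.08 and 5.84 in 3d DM. After rescaling, the 2 3d DM libraries lay above both GM libraries for all 3 subunits, with Phka1 still not passing the test (adjusted p = 0.12 in limma), and a difference between the subunits was not tested.

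On the side of synthesis, Gys1, the glycogen synthase of muscle, had 502 and 360 in GM against 1535 and 2189 in 3d DM, a 4.30-fold higher level. Its log2 fold change was 2.11 ± 0.43 SE, with an adjusted p of 1.8e-05 on the deposited scale and of 0.0017 after rescaling in limma. Gyg, glycogenin, which primes the glycogen chain, had 410 and 357 in GM against 758 and 807 in 3d DM. It was higher in both 3d DM libraries, with an adjusted p of 0.096 on the deposited scale and of 0.010 after rescaling in limma. Gbe1, the branching enzyme, had 244 and 169 in GM against 119 and 164 in 3d DM and did not pass the test.

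Phosphoglucomutase links glucose 1-phosphate to glycolysis. Pgm1, the main form, had 1110 and 598 in GM against 650 and 749 in 3d DM and overlapped between the states. Pgm2, which acts also on pentose phosphates, had 534 and 500 in GM against 114 and 193 in 3d DM, a 3.46-fold lower level (log2 fold change -1.79 ± 0.46 SE, adjusted p = 0.0012 in limma). The names follow the current mouse nomenclature, in which Pgm1 lies on chromosome 4 and Pgm2 on chromosome 5. Fbp2, the muscle fructose bisphosphatase, which works against phosphofructokinase, was listed at 0 in both GM libraries and at 0.112 and 2.32 in 3d DM, under the filter.

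The Pfkfb enzymes make and degrade fructose 2,6-bisphosphate, the activator of phosphofructokinase. Pfkfb2 had 178 and 135 in GM against 122 and 207 in 3d DM, and Pfkfb3 had 32.3 and 65.2 in GM against 47.9 and 40.9 in 3d DM. Pfkfb4, with 134 and 97.3 in GM against 56.8 and 93.5 in 3d DM, was lower in both 3d DM libraries without passing the test (adjusted p = 0.49 in limma). Pfkfb1, the liver and muscle form, had 15.6 and 23.1 in GM against 6.46 and 8.86 in 3d DM and was not tested.

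Compared per kilobase of exon, the order of the members by level shifted between the states. By its mean, Gapdh was the highest per kilobase in both states, at 10190 in GM and 6765 in 3d DM. In GM its libraries (11726 and 8655) overlapped those of Eno1 (9532 and 9305), to which part of the level of Eno1b (5940 and 5421) may belong, so the order of the 2 genes in GM is uncertain. Eno3 was the eighth of the 35 in GM, at a mean of 3347 per kilobase, and the second in 3d DM, at 6296. Eno1 went from the second place (9418 per kilobase) to the fourth (3768). Pfkm stood at 151 per kilobase in GM and 1196 in 3d DM, Pgam2 at 29.6 and 708, and Pygm at 13.9 and 493. At the top of the order in 3d DM, Gapdh (6068 and 7462 per kilobase) and Eno3 (5749 and 6843) had overlapping ranges.

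Ratios of isozymes within a library do not change when a library is multiplied by 1 factor, apart from the 1 added to each value. They can depend on an adjustment that differs between levels, such as that behind pseudo-counts, which the deposited values resemble. Of the 10 pairs of a muscle form and a counterpart, 8 had a higher ratio in each 3d DM library than in each GM library, 0 had a lower one and 2 overlapped. The exact permutation test over 4 libraries cannot give a p-value under 0.33, which all 8 pairs reached. The 8 pairs are not independent, since Pfkm and Pygm each enter 2 of them. They include Aldoa over Aldoc and Pygm over Pygl, whose counterparts lay under the filter on low values. The share of such shifts among other pairs of genes was not computed, so the count of 8 has no background to be set against.

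The largest shift among pairs whose forms were both above 0 in every library was that of Pygm over Pygb. Its log2 ratio was -3.03 and -4.68 in GM against 2.69 and 2.32 in 3d DM, a change of the ratio of 82.3-fold. The log2 ratio of Pgam2 over Pgam1 was -6.90 and -8.94 in GM against -1.05 and -2.24 in 3d DM, a change of 77.4-fold. Both pairs moved in the same direction in every comparison of libraries, but the phosphorylase pair changed sign and the mutase pair did not.

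Pfkm over Pfkl had log2 ratios of -0.97 and -1.55 in GM against 2.90 and 2.44 in 3d DM, a change of 15.3-fold. Pfkm over Pfkp changed by 12.9-fold. For Eno3 over Eno1 the log2 ratio was -1.77 and -1.86 in GM against 0.58 and 0.29 in 3d DM, a change of 4.77-fold. The smaller changes were those of Hk2 over Hk1, by 2.36-fold, and of Aldoa over Aldoc, by 1.90-fold, the latter resting on the low values of Aldoc. The ratio of Pygm over Pygl has no reliable size, since Pygl was listed at 0 in both GM libraries, and its log2 change was 5.01 with 1 added to each value and 3.71 with 0.1 added. The ratio of Eno3 over Eno2 and that of Ldha over Ldhb overlapped between the states, with changes of -0.04 and -0.73 on the log2 scale.

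**Figure D3:**
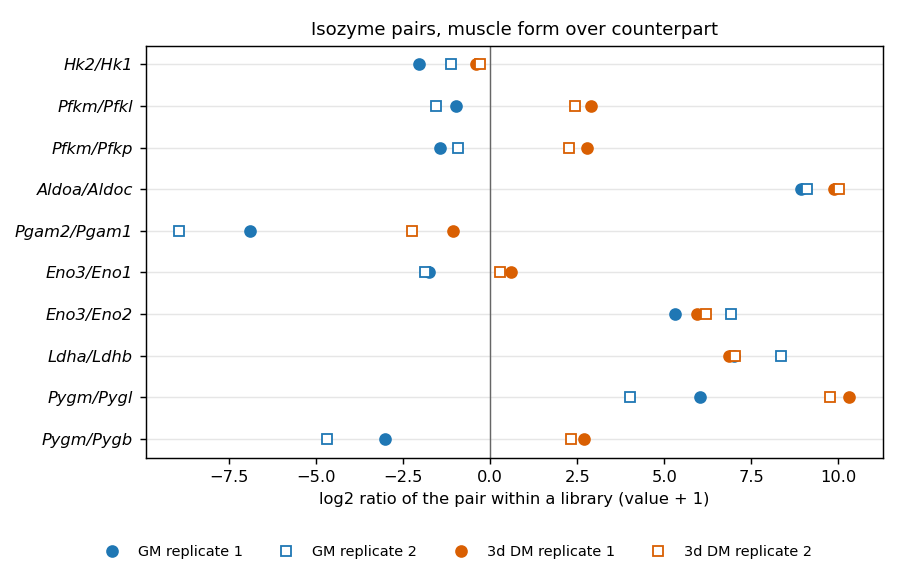
Log2 ratio of the muscle form over its counterpart within each input library, for the 10 pairs, after adding 1 to each value. Blue marks are GM and orange marks 3d DM; in 8 pairs both orange marks lie to the right of both blue ones, and the marks of Eno3/Eno2 and Ldha/Ldhb overlap.

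Shares of the summed level per kilobase show which form made up most of the RNA for a step. Pfkm made up 22.2% and 21.6% of phosphofructokinase RNA in GM against 82.7% and 77.2% in 3d DM. Pygm made up 13.9% and 4.67% of phosphorylase RNA in GM against 89.7% and 87.0% in 3d DM. In both families the muscle form passed from the minority to the majority.

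The share of Eno3 in enolase RNA was 26.7% and 25.6% in GM against 64.8% and 60.2% in 3d DM. With Eno1b added to the other enolases, the share of Eno3 was 18.4% and 17.8% in GM against 53.3% and 48.9% in 3d DM. The copy therefore lowers the share but leaves both 3d DM libraries far above GM. Pgam2 made up 1.62% and 0.371% of mutase RNA in GM against 49.3% and 29.99% in 3d DM, so Pgam1 remained the larger part in all 4 libraries. Hk2 made up 16.5% and 27.4% of the summed Hk1 and Hk2 level in GM against 38.4% and 40.2% in 3d DM. Ldha made up at least 98.8% of lactate dehydrogenase RNA in every library. Pgm1 made up 69.6% and 56.9% of the 2 phosphoglucomutases in GM and 86.2% and 81.1% in 3d DM.

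**Figure D4:**
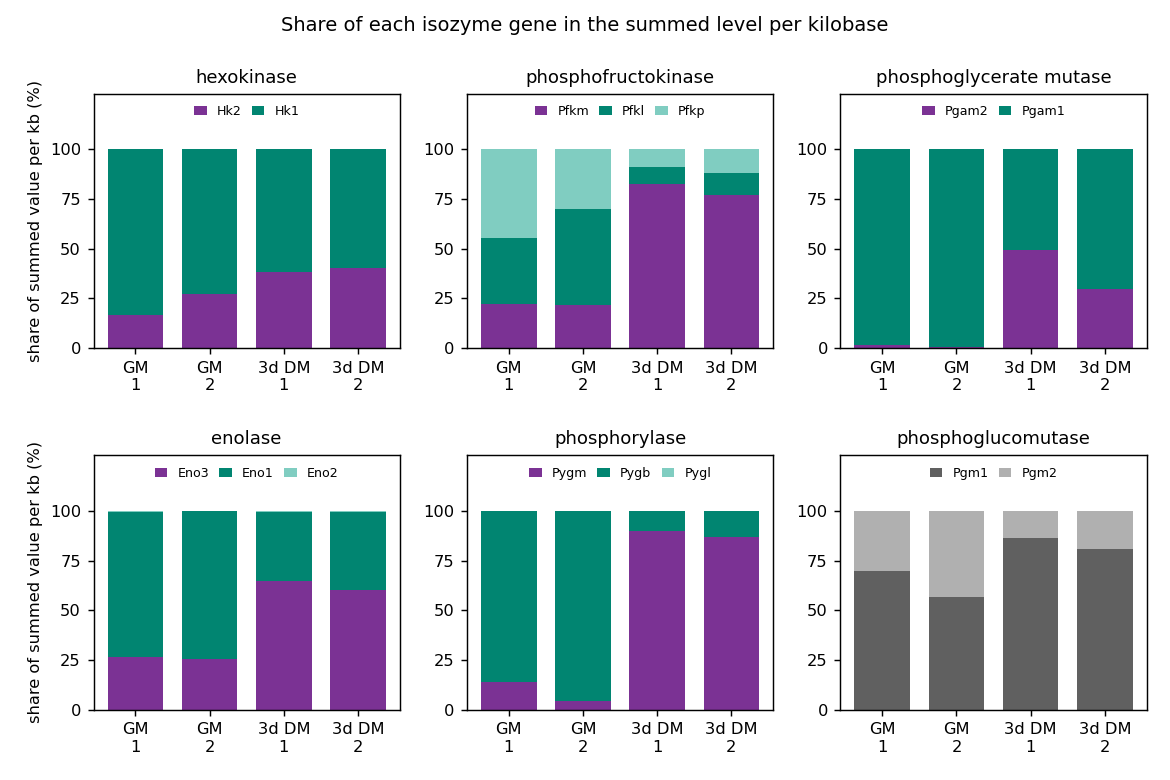
Share of each isozyme gene in the summed value per kilobase of its reaction, in percent, for each of the 4 input libraries. Purple is the muscle form, green its counterparts, and grey tones the 2 phosphoglucomutases; the purple part is the larger in both 3d DM libraries for phosphofructokinase, enolase and phosphorylase, and not for hexokinase or phosphoglycerate mutase.

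Other genes of carbohydrate use moved in part with the members. Among the sugar and lactate carriers, 0 of 4 tested were called higher (background 7.01%) and 2 lower (background 9.96%). Slc2a1, the glucose carrier of growing cells, had 691 and 714 in GM against 194 and 319 in 3d DM (log2 fold change -1.49, adjusted p = 0.0075 in limma). Slc16a1, a lactate carrier, had 1535 and 1508 in GM against 416 and 569 in 3d DM (log2 fold change -1.64, adjusted p = 0.0015 in limma). Slc2a4, the insulin-responsive carrier of muscle, did not exceed 10.6 in any library.

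Of the 8 genes of the pentose phosphate pathway, which branches from glucose 6-phosphate, 0 were called higher (background 7.01%) and 3 lower (background 9.96%). G6pdx, which opens the pathway, had 1465 and 1046 in GM against 172 and 248 in 3d DM (log2 fold change -2.58). Tkt changed by -1.74 and Pgd by -1.24 on the same scale. All 3 were lower in each 3d DM library than in each GM library, as were 37.0% of all genes tested on the deposited scale.

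Of the 12 genes for the entry of pyruvate into mitochondria, 1 was called higher (background 7.01%) and 0 lower (background 9.96%). After rescaling 3 were called higher (background 12.0%). The gene called on the deposited scale was Pdk2, a kinase that restrains pyruvate dehydrogenase, with 118 and 19.1 in GM against 259 and 263 in 3d DM. It was not called after rescaling (adjusted p = 0.051 in limma), where Pdha1, Pdk1 and Pdp1 were. Of 4 other glycolytic genes tested, 0 were called in either direction.

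AMP-activated protein kinase senses low energy and acts on both pathways. Of its 7 subunit genes, 3 were called higher (background 7.01%) and 0 lower (background 9.96%). Prkag3, the gamma subunit typical of glycolytic muscle, had 39.2 and 10.1 in GM against 827 and 990 in 3d DM (log2 fold change 5.43). Prkaa2, the alpha subunit rich in muscle, changed by 4.02 and Prkab2 by 1.25 on the same scale. The other 4 subunits, Prkaa1, Prkab1, Prkag1 and Prkag2, did not pass the test and had log2 fold changes of -0.60, -0.70, -0.65 and -1.06, so the median of the 7 was -0.60.

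The promoters of 3 muscle forms that were called higher and held the motif CAGCTG are shown because myogenic factors of the MyoD family bind E-boxes such as CAGCTG, factors of the MEF2 family bind an AT-rich motif, and ACGTG is the core of the motif of hypoxia-inducible factors. The sequences are the 250 bases before the annotated start in RefSeq (GRCm38, which is mm10), written 5′ to 3′ on the strand of the gene, with CAGCTG, its own reverse complement, in capitals, as are ACGTG on either strand and the MEF2 motif. They lie at chr11:5803797-5804046 on the minus strand for Pgam2, and on the plus strand at chr19:6384158-6384407 for Pygm, chr7:45434589-45434838 for Gys1 and chr19:41911621-41911870 for Pgam1. Pgam1 is shown as the counterpart that was lower in 3d DM.
Pgam2: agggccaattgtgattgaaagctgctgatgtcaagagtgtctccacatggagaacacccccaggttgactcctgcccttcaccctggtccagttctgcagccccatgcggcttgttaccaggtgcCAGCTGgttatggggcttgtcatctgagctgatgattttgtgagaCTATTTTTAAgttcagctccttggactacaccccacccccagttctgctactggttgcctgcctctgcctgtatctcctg
Pygm: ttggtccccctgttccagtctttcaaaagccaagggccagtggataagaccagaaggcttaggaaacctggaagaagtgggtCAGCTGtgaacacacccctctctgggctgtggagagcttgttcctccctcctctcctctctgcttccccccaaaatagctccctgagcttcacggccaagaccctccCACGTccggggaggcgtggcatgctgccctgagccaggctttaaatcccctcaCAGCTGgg
Gys1: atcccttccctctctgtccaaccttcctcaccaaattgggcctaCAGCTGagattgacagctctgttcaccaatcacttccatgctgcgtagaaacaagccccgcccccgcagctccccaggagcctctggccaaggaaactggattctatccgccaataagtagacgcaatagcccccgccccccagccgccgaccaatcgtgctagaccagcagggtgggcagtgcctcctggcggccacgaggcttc
Pgam1: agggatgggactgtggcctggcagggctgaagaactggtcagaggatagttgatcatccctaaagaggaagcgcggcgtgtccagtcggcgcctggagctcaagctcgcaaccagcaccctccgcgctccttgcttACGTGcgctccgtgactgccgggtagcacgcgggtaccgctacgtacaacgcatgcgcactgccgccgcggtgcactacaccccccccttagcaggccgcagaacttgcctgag

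The Pgam2 promoter held CAGCTG 125 bases before the start and a MEF2 motif 80 bases before it. The Pygm promoter held CAGCTG at 168 and at 8 bases before the start and ACGTG on the reverse strand at 61 bases. The Gys1 promoter held CAGCTG at 206 bases before the start, and the Pgam1 promoter held ACGTG at 114 bases. These are matches of letters, not bound sites, and no binding was measured.

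Over windows of 250 bases before to 50 after each start, CAGCTG was present in 16.3% of all 32851 promoter windows. It was present in 7 of the 17 windows of muscle forms (41.2%) and in 0 of the 14 windows of general forms. The muscle forms with it included Aldoa, Eno3, Phka1 and Fbp2, none of which was called higher on the deposited scale. Enzymes without a muscle counterpart had it in 3 of 11 windows (27.3%). These were windows of Phkb, which was called higher, of Gpi1, which was not called, and of Pkm, which was called lower. Pfkm, which rose 8.16-fold, more than Gys1, had it in none of its 4 windows, so the printed promoters are not typical of every member that rose. ACGTG was present in 19.6% of all windows and in 23 of the 52 windows of members (44.2%), with 8 of 17 in muscle forms and 5 of 14 in general forms. The MEF2 motif was present in 3.19% of all windows and in 2 of the members' 52. Windows of 1 gene can overlap each other, so they are not independent.

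m6A was read from the 4 peak lists, 1 for each precipitated library against its own input, as called by the authors with exomePeak. Each line gives a fold enrichment, the ratio of precipitated over input RNA, and a p-value. A distinct peak can fill several lines. A peak was found on 23 of the 30 tested members in at least 1 list (background 75.7%) and on 7 of them in all 4 lists (background 42.4%). The number of members with a peak was 16 and 15 in GM against 11 and 18 in 3d DM, and the number of distinct peaks was 28 and 24 in GM against 23 and 25 in 3d DM. Neither number differed beyond the spread between libraries (exact permutation p = 1.00 and p = 0.667, where 0.33 is the smallest possible).

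The 7 members with a peak in all 4 lists were Hk1, Hk2, Gpi1, Pfkl, Pfkp, Tpi1 and Pkm. Of these, 3 were general forms, 3 had no muscle counterpart, and Hk2 was the 1 muscle form. No peak was listed in any library for Pgk1, Ldha, Ldhb, Eno2, Phka1, Pgm2 and Pfkfb3 among the tested members. Ldha and Pgk1 lacked peaks although both were among the 8 highest members per kilobase in each state.

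A peak in both 3d DM lists and in neither GM list was found for 3 members, Gys1, Pgam2 and Pygm (1.72% of all genes tested had this pattern), and in both GM lists only for 0 (2.64% of all genes). These 3 are among the 4 members with the largest rise in RNA, and the fourth, Pfkm, had a peak in 3d DM replicate 2 alone. A peak is easier to call on an abundant transcript. In GM the 2 libraries of Pgam2 held 44.5 and 9.06 and those of Pygm 64.5 and 15.1. Those of Gys1 were not as low, at 502 and 360. The part of the RNA level in the presence of these peaks was not tested. With only peaks of a p-value of at most 1e-05, Pgam2 alone kept the pattern, since the smallest p in 3d DM replicate 1 was 1.7e-05 for Gys1 and 2.6e-05 for Pygm.

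The Pgam2 peak covered coding sequence and 3′ UTR at chr11:5801640-5803284, with fold enrichments of 2.33 and 3.90 in the 3d DM libraries. The Gys1 peak shared by both 3d DM lists lay over coding sequence and 3′ UTR at chr7:45454837-45455549, with 1.48 and 2.47. The Pygm peak shared by both lay in the 3′ UTR at chr19:6398270-6398459, with 1.81 and 2.66. In all 3 cases 3d DM replicate 2 had the higher enrichment. Spans are given in mm10 and can include introns.

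**Figure D5:**
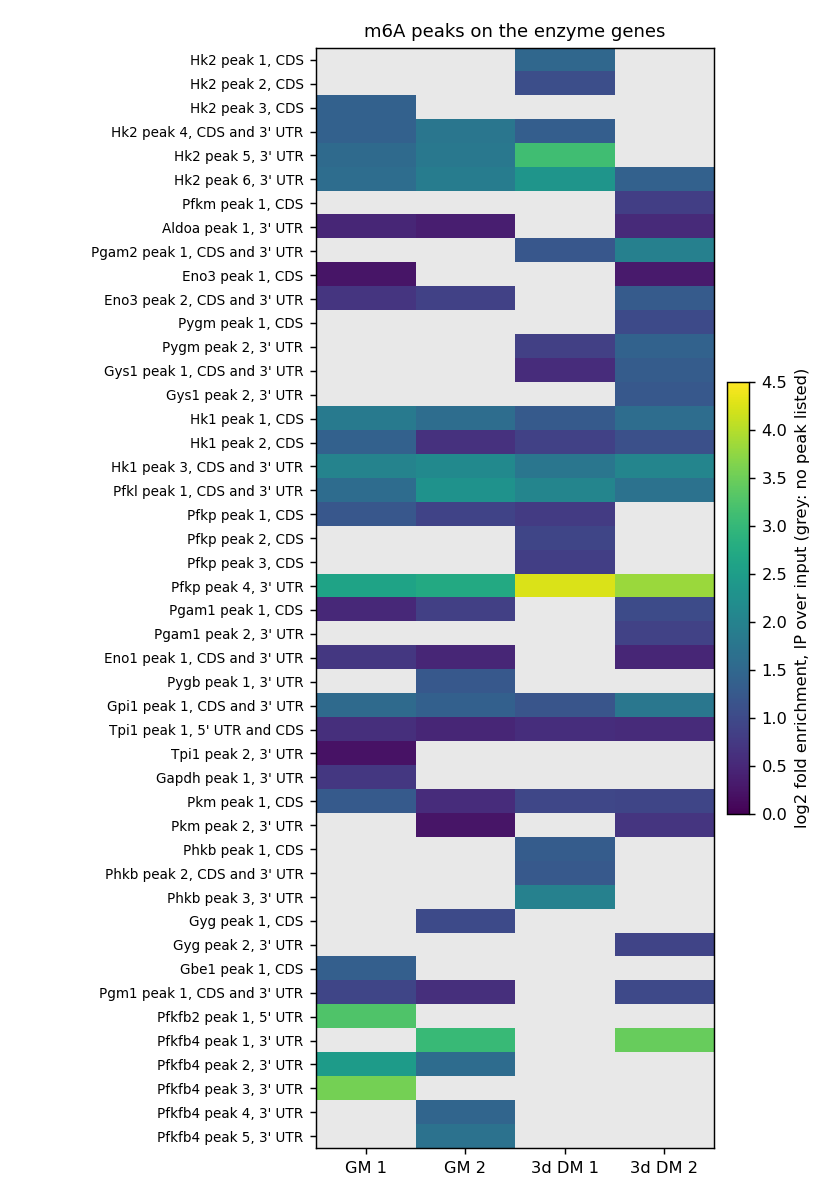
Log2 fold enrichment of precipitated over input RNA at each of the 46 distinct m6A peaks on the members (rows) in the 4 peak lists (columns), with grey where no peak was listed. The 9 rows filled in all 4 columns belong to Hk1, Hk2, Gpi1, Pfkl, Pfkp, Tpi1 and Pkm, and the brightest is Pfkp peak 4 in the 3d DM columns.

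Over all lists the members carried 46 distinct peaks, of which 9 were in all 4. At these 9 the median log2 fold enrichment was 1.59 and 1.61 in GM against 1.27 and 1.60 in 3d DM, a change of -0.17 (exact permutation p = 0.667). The enrichment at 8 of the 9 changed by no more than 0.30 in size on the log2 scale. The exception was the 3′ UTR peak of Pfkp at chr13:6579857-6580185. Its fold enrichment was 6.12 and 6.65 in GM against 19.0 and 14.2 in 3d DM, a log2 change of 1.36 that was higher in each 3d DM library than in each GM library (exact permutation p = 0.333, the smallest possible). This peak was singled out after its values were seen. The p-values of the peak in exomePeak were 1e-19 and 3.2e-12 in GM against 1.3e-06 and 1.3e-13 in 3d DM. The RNA level of the whole Pfkp gene overlapped between the states, as given above, but it need not equal the input at this site. The part of the RNA level in the change was not tested.

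The remaining peaks in all 4 lists were weaker. Hk1 carried 3 of them, the strongest over the end of its coding sequence and 3′ UTR at chr10:62269064-62270032, with 4.05 and 4.38 in GM against 3.40 and 4.16 in 3d DM. The Gpi1 peak had 2.94 and 2.61 in GM against 2.28 and 3.46 in 3d DM, and the Pfkl peak 3.02 and 4.89 in GM against 4.14 and 3.26 in 3d DM. Pkm, in coding sequence, had 2.41 and 1.49 in GM against 1.94 and 1.92 in 3d DM, and Tpi1 lay between 1.40 and 1.51 in all 4 lists. In each of these the 2 states overlapped, except for the first Hk1 peak, whose fold was 3.62 and 3.06 in GM against 2.41 and 3.03 in 3d DM.

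As a group the members were weakly enriched. The median fold over the members' lines was 2.62 and 1.90 in GM against 1.98 and 2.23 in 3d DM, where it was 4.37, 3.91, 3.70 and 4.07 over all lines of the same lists. Over the lines of the tenth of genes with the highest expression, which includes 12 members, the median was 2.99, 2.76, 2.66 and 2.95, between these values. For those 12 members alone it was 2.27, 1.69, 2.01 and 2.13, below the median of those most expressed genes in all 4 lists. The difference was not tested.

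The core motif of m6A sites, GGACT, is shown for 6 peaks listed in all 4 libraries, at the match nearest to the middle of the peak, where the window of 25 bases lies within 1 exon. The letters are those of mm10 on the strand of the gene, 5′ to 3′, with GGACT in capitals. The windows lie at chr7:34202447-34202471 (Gpi1, coding), chr10:62269545-62269569 (Hk1, 3′ UTR), chr6:82725330-82725354 (Hk2, 3′ UTR), chr10:77988165-77988189 (Pfkl, 3′ UTR), chr9:59669001-59669025 (Pkm, coding) and chr6:124812486-124812510 (Tpi1, coding), with Pkm on the plus strand and the other 5 on the minus strand.
Gpi1: ctccactaacGGACTgatcagcttc
Hk1: cccccctcttGGACTgtcttctggg
Hk2: atctaggaaaGGACTtttttttaaa
Pfkl: ctgcgttcccGGACTctcaccctcc
Pkm: tcctgtggctGGACTacaagaacat
Tpi1: cctagcagagGGACTcggggtgatc

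GGACT was present in 18 of the 46 member peaks, in 8 of the 9 that were in all 4 lists and in 10 of the other 37. The peaks in all 4 lists were longer, with a median of 559 exonic bases against 174 in the others, and a longer peak has more room for any motif. The strong Pfkp peak was the 1 of the 9 without GGACT. Per kilobase, the members' lines held 3.00 and 2.51 matches in GM against 2.06 and 2.09 in 3d DM, where all lines held 1.30, 1.42, 1.32 and 1.37. These densities count a site again for each line that covers it. Hk1 alone gave 12 of the members' 57 lines in GM replicate 1, from 3 peaks with GGACT. With each of the 46 distinct peaks counted once, the density was 2.01 per kilobase. The antibody does not give the modified base, so a match does not show which adenosine carried the mark.

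By position, 56.1% and 56.9% of the members' lines in GM touched the 3′ UTR, as did 37.5% and 54.5% in 3d DM, and over all genes the share was 45.0% to 50.0%. Lines touching the 5′ UTR were few, 1.82% to 3.51% of the members' lines, and belonged to Tpi1 in all 4 lists and to Pfkfb2 in GM replicate 1. Pfkfb4 had the strongest enrichments in GM, with separate peaks along its 3′ UTR, on an RNA level of 134 and 97.3. The largest was 11.8-fold in GM replicate 1 alone. Another peak had 8.22-fold in GM replicate 2 and 10.9-fold in 3d DM replicate 2. No Pfkfb4 peak had a p-value of at most 1e-05, the smallest being 0.00031 in exomePeak. No peak on Pfkfb4 was listed in 3d DM replicate 1, where its RNA level was 56.8.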

How the data were processed

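The data were C2C12 MeRIP-seq and matched input RNA-seq in GM and 3d DM, with 2 input and 2 precipitated libraries in each state. The authors aligned reads to mm10 with HISAT2 (2.1.0, per the submitters' processing notes), called peaks with exomePeak for each library against its input, and handled gene counts with edgeR. The deposited expression values are a normalized signal (TMM), with pairs of low values that recur within a state as in pseudo-counts. Reads could not be recovered from them, so the depth is unknown. The deposited peak lists give a p-value and a fold, the ratio of precipitated over input RNA, for each line. The low-value filter asked for 2 cpm of a column's total, here 25.1, in 2 or more libraries. The 11406 genes left were fitted on log2(value + 1) by limma (3.58.1, R 4.3.3), using its intensity trend, and p-values were adjusted by Benjamini-Hochberg over all of them. Folds are on that scale. Isozyme ratios, peak numbers and enrichment were compared by two-sided exact permutation tests over 4 libraries.

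Peak lines of 1 gene and strand that overlapped by 1 bp or more counted as 1 distinct peak and were assigned to genes by transcript through GENCODE M21, so the peaks listed under the older symbol Pgm2 on chromosome 4 are given under Pgm1. Promoters were taken from RefSeq and matched all 35 members by symbol. All 35 members are named, and other pathway genes were named when called with a log2 fold change above 1 in size. The list of further glycogen genes is not reported here. The members and lists were chosen with earlier results of these data known. The alternatives were other filters, pseudocounts of 0.1 and 4, a replicate block, no trend, median-of-ratios and trimmed-mean rescaling, stricter peak thresholds (p of at most 1e-05, fold of at least 4), a larger shared span, and each library left out. Scripts ran in Python 3.11.15 with pysam 0.24.0, pandas 2.3.3, numpy 2.4.6 and matplotlib 3.10.9.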

Additional observations from a re-analysis of the deposited data

How the results depend on the processing

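Of all tested members, 5 were called higher on the deposited values, 4 with the replicate block and between 1 and 4 with 1 library left out. Also 5 were called lower, against 3 without a filter on low values, 1 with the replicate block and between 0 and 2 with 1 library left out, while over all genes the calls of lower level went from 1136 to 705 with the block and to between 44 and 573 with 1 library left out. The replicate numbers do not establish a pairing, since the labels name no shared culture. Over the genes tested, the deviations of same-numbered libraries from the mean of their state correlated at r = 0.29. With 2 libraries in a state, both replicate numbers must give this same value, so they are not separate evidence. Pairing the libraries the other way round would give the same size with a negative sign. Deviations of same-numbered libraries thus went together to this degree, and the source of this was not tested. For the isozyme pairs, 8 of 10 were higher, as within replicate numbers, and 8 or 9 with 1 library left out. The number of distinct peaks in 3d DM minus GM was -2 and became 2 at a peak p-value of at most 1e-05.

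Over the 12 alternatives for each of 30 members, 304 of 360 values kept direction and side of the threshold, 34 lost a call, 8 gained one and 14 changed sign, all 14 on 6 members without a call. The log2 fold change of Pgm1 turned to 0.0043 with median-of-ratios and 0.0066 with trimmed-mean rescaling, and that of Pfkfb3 to 0.17 under both. With 1 library left out, it ran from -0.67 to 0.22 for Pgm1, -0.55 to 0.44 for Pfkfb3, -0.17 to 0.43 for Gpi1, -0.32 to 0.50 for Aldoa, -0.65 to 0.76 for Ldhb and -0.34 to 0.41 for Pfkfb2. The cause was not tested. Where 1 library was left out, the lone library of its state was assumed to vary like those of the other state. The files hold no read numbers, so what depth limits cannot be given.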
